A study of Homo sapiens with 6 samples.

Results

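The genes examined were 55 genes of DNA replication and S phase, taken by symbol from the 60604 genes in the count tables. They cover origin licensing, the replicative helicase, the DNA polymerases, the sliding clamp and its loader, nucleotide supply, and regulators of entry into and passage through S phase. The members were listed by function and matched to 1 Ensembl identifier each, and they lie on 21 chromosomes. RNA was sequenced in 6 libraries of AGS, an established cell line from a human gastric adenocarcinoma. In 3 libraries the cells had received 0.5 mM indomethacin for 24 h, and in 3 control libraries they had received 0 mM. Indomethacin, an NSAID, blocks the cyclooxygenases that make prostaglandins. The study's title names sirtuin 3, a mitochondrial deacetylase, as a target shared by drugs of this class. All 6 libraries come from this 1 line, the labels give no time or vehicle for the controls, and nothing in them says that the samples of a group were separate cultures. The p-values therefore refer to the spread among these 6 samples, some or all of which may be technical.

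A replication origin is licensed in G1 when the origin recognition complex (ORC), CDC6 and CDT1 load the ring-shaped MCM helicase onto DNA. At the start of S phase CDC45 and the GINS complex join the ring and turn it into the active CMG helicase, behind which polymerases alpha, delta and epsilon copy the strands with the clamp PCNA. Many of these genes are transcribed in a wave at the passage from G1 to S phase under E2F transcription factors, and they are widely used as markers of proliferation in gastric and other epithelia. In bulk RNA, fewer cells in S phase and less RNA of these genes per cell cannot be told apart.

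Total counts were 17535435 to 20094302 in the indomethacin libraries and 20983189 to 23221077 in the control libraries. Markers of simple epithelium (KRT8, KRT18, KRT19, EPCAM and CDH1) summed to 2601 to 2894 CPM in the indomethacin libraries and 3153 to 3637 CPM in the control libraries, where CPM are counts scaled by TMM factors to a common library size. These 5 genes did not move as one: KRT8 and EPCAM fell (log2 fold changes -0.55 and -0.68), CDH1 rose (1.51), and KRT18 (0.24) and KRT19 (-0.11) did not pass. The 4 leukocyte markers summed to at most 0.448 and 0.490 CPM, and the 3 endothelial markers to at most 0.523 and 0.490 CPM, in the indomethacin and the control libraries. The 5 fibroblast markers summed to 9.43 to 11.3 CPM in the indomethacin libraries and 6.52 to 8.62 CPM in the control libraries, nearly all of it COL1A1 and, in the controls, PDGFRB. Mitochondrially encoded genes took 18.4% ± 1.54 of the counts in the indomethacin libraries and 24.3% ± 2.15 in the control libraries, and small structured nuclear RNAs took 14.6% ± 1.71 and 9.67% ± 1.04 (SD, n = 3 each). With both classes left out of the library sizes, 52 members passed the test as lower and 2 as higher, as with them. TMM factors were computed again after this change and offset most of it. The setting therefore cannot show whether the 2 classes affected the results. The part of these marker and RNA classes in the results was not tested.

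Nearly the whole replication programme was lower in indomethacin-treated cells. All 55 members had enough counts to be tested, and 52 of them fell (quasi-likelihood test of edgeR at a threshold of 0.05, adjusted by Benjamini-Hochberg over 17200 genes), 94.5% of the members against 31.0% of all genes tested. The 2 members that rose were RFC1 and CDC6, against 30.6% of all genes, and ORC3 did not pass. The fall was at least 4-fold for 26 members, against 5.38% of all genes. In the same 52 members that fell, every indomethacin library lay below every control library, against 33.3% of all genes. The counts by role given below are to be read against these shares of all genes tested. The median log2 fold change was -1.93 over the members and 0.04 over all genes tested, and the members ranged from -5.39 for FAM111B to 0.81 for RFC1. Differences in fold change between members were tested only for the 4 ratios of partner genes. Together the members took 0.107%, 0.118% and 0.137% of all counts in the indomethacin libraries, against 0.349%, 0.303% and 0.333% in the control libraries.

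**Figure D1:**
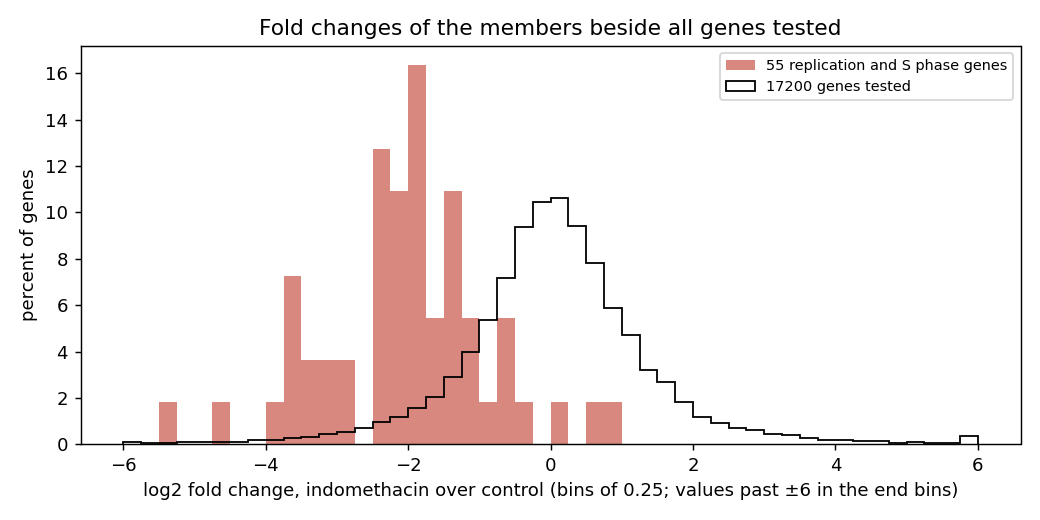
Percent of genes (y axis) by log2 fold change of indomethacin over control (x axis, bins of 0.25), for the 55 members (filled) and all 17200 genes tested (line). The members centre on -1.93 and all genes near 0.04, with 3 members to the right of 0.

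**Figure D2:**
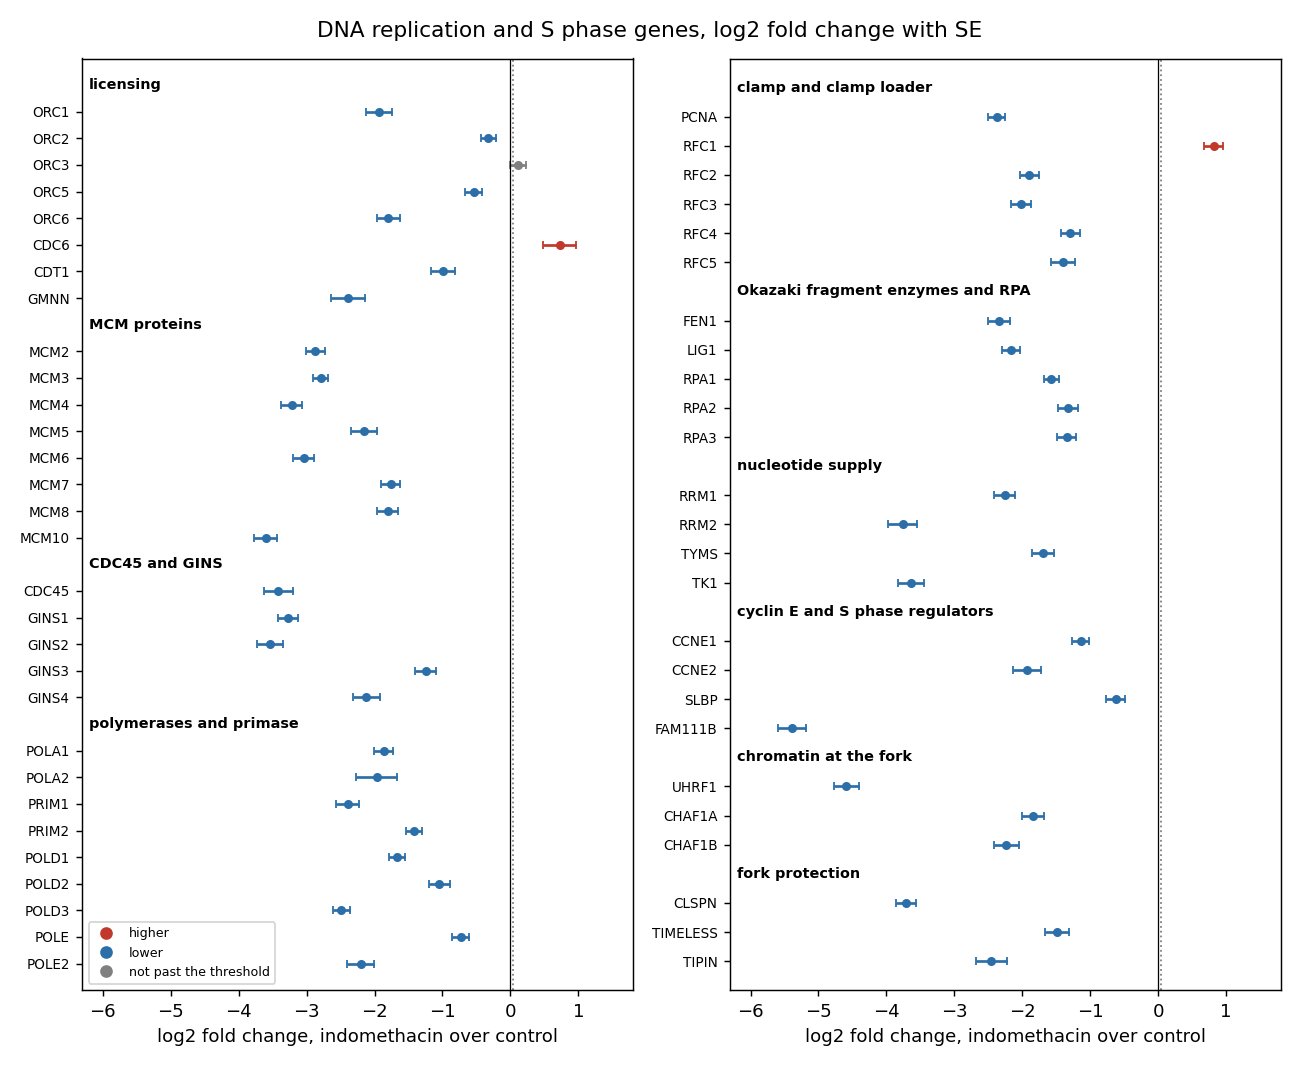
Log2 fold change of indomethacin over control (x axis) with its SE for each of the 55 members, grouped by role. The dotted line is the median of all genes tested, and colours give the call; FAM111B and UHRF1 lie farthest to the left, and RFC1 and CDC6 are the members called higher.

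Since the members moved together, the promoter windows of those at the ends of the range are shown, from RefSeq on GRCh38.p14, each from 250 bases before to 50 bases after the start RefSeq annotates. For UHRF1 and RRM2 the gene in the count tables begins far upstream of that start, for RFC1 it begins a few bases upstream, and for CDC6 it begins at the same base. Of the 55 members 47 had an entry; MCM4, MCM5, GINS4, POLD3, RPA2, RPA3, CCNE2 and FAM111B had none. Printed are the 2 members with the lowest and the 2 with the highest fold change among those with an entry, 5′ to 3′ along the gene's strand, with E2F-type octamers in capitals.
UHRF1, chr19:4909251-4909550, plus strand: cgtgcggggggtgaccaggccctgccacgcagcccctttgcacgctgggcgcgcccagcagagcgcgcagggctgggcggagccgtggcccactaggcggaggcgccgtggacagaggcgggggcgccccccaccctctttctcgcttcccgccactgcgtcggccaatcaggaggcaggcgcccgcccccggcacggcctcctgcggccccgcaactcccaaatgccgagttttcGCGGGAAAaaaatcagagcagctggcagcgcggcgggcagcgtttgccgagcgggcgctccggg
RRM2, chr2:10122489-10122788, plus strand: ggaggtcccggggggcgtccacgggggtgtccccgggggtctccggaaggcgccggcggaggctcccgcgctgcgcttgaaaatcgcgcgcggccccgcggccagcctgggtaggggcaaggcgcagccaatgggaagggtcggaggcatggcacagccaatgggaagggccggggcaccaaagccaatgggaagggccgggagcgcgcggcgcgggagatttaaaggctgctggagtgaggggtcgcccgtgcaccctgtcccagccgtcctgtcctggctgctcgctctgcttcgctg
RFC1, chr4:39366313-39366612, minus strand: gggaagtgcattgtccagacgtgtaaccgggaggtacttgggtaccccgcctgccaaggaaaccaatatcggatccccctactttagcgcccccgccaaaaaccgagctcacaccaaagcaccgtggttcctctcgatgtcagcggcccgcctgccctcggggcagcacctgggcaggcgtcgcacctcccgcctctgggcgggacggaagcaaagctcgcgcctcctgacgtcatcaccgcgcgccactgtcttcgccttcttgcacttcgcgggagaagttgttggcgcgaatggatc
CDC6, chr17:40287629-40287928, plus strand: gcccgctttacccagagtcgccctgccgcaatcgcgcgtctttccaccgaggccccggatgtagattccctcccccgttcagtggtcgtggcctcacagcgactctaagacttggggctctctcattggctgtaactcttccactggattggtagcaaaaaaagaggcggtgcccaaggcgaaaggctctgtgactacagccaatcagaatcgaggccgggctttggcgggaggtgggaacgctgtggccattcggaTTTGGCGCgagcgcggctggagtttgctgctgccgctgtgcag

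The octamers searched were TTTCCCGC, TTTCGCGC, TTTGCCGC and TTTGGCGC, on both strands. One or more was present in 21 of the 47 member windows, or 44.7%, and in 3.31% of the 35116 windows of the table, which also holds windows of genes that do not code for proteins. UHRF1, the most lowered member with an entry, had 1 such match beginning 14 bases before the start, and CDC6, which was higher, had 1 beginning 7 bases after it. RRM2 and RFC1, at opposite ends of the range, had none. MCM6 held 4 matches, and MCM2, MCM3 and MCM7 held 2 each. The median log2 fold change was -2.02 in the 21 members with a match and -1.82 in the 26 without. The CCAAT pentamer, on both strands, was in 28 of 47 member windows (59.6%) and in 34.6% of all windows. The hexamers TTTGAA or TTCGAA of the CHR element, which is known from promoters of mitotic genes, were in 2 of 47 member windows (4.26%) and 16.4% of all. A match says only that these letters are present. A window without a match may still hold sites that differ from the letters searched.

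Origin licensing was the one role with genes that fell, a gene that rose and a gene that did not pass. Of its 8 genes, 6 fell, or 75%, against 31.0% of all genes tested. CDC6 rose and ORC3 did not pass, and the median log2 fold change was -0.77. ORC1, the ATPase subunit that joins the complex in G1, was at 4.66, 6.12 and 8.41 CPM in the indomethacin libraries and 24.8, 20.9 and 26.8 CPM in the control libraries (log2 fold change -1.93, SE 0.19, edgeR adjusted p = 1.0e-06). ORC6, the smallest subunit, was at 4.71, 5.22 and 7.15 CPM in the indomethacin libraries and 19.2, 20.2 and 19.6 CPM in the control libraries (log2 fold change -1.80). For both genes the highest indomethacin library was less than 9 CPM and no control library was below 19 CPM. The core subunits had smaller fold changes. ORC2 was at 47.4, 41.7 and 49.6 CPM in the indomethacin libraries and 53.4, 61.1 and 59.5 CPM in the control libraries (log2 fold change -0.33, edgeR adjusted p = 0.018), and ORC5 was at 18.7, 15.2 and 17.6 CPM in the indomethacin libraries and 26.2, 24.6 and 24.02 CPM in the control libraries (log2 fold change -0.54). The call for ORC2 was lost without indomethacin replicate 2 (log2 fold change -0.26, adjusted p = 0.087) and with upper-quartile factors (-0.21, adjusted p = 0.10). ORC3 was at 34.4, 35.4 and 37.9 CPM in the indomethacin libraries and 35.9, 29.2 and 34.5 CPM in the control libraries, so that the groups overlapped (log2 fold change 0.11, SE 0.12, edgeR adjusted p = 0.41). Per kilobase of exon the 5 ORC genes lay between 4.56 and 9.95 CPM per kb in control cells. In indomethacin-treated cells ORC1 and ORC6 were at 2.05 ± 0.606 and 1.32 ± 0.299 CPM per kb, while ORC2 and ORC3 were at 7.93 ± 0.701 and 8.76 ± 0.439 CPM per kb (mean ± SD, n = 3).

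CDC6, the ATPase that works with ORC to load MCM rings, was the 1 licensing gene that rose. The gene (ENSG00000094804, chromosome 17, 40287879 to 40304657, plus strand, hg38) was at 74.2, 105 and 191 CPM in indomethacin replicates 1, 2 and 3 and at 81.3, 65.9 and 76.3 CPM in the control libraries. Replicate 1 lay within the control range, replicate 2 above it and replicate 3 far above it. The log2 fold change was 0.73 (SE 0.24, edgeR adjusted p = 0.019), and this call rests on few libraries. Without indomethacin replicate 3 it was 0.26 (adjusted p = 0.14), without control replicate 2 it was 0.60 (adjusted p = 0.075) and without control replicate 3 it was 0.71 (adjusted p = 0.051). DESeq2 gave 0.72 (adjusted p = 0.13). The ratio of CDC6 to ORC1, per kilobase, was 9.35, 10.1 and 13.4 in the indomethacin libraries and 1.92, 1.85 and 1.67 in the control libraries (two-sided exact permutation test, p = 0.1, the smallest that 3 against 3 allows).

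CDT1, which brings the MCM ring to the origin, and geminin (GMNN), the protein that binds CDT1 and blocks relicensing, both fell. CDT1 was at 6.94, 9.85 and 10.6 CPM in the indomethacin libraries and 16.4, 17.02 and 20.97 CPM in the control libraries (log2 fold change -0.99). GMNN was at 4.28, 4.08 and 7.99 CPM in the indomethacin libraries and 37.7, 21.8 and 25.3 CPM in the control libraries (log2 fold change -2.39, SE 0.25, edgeR adjusted p = 2.0e-06). Neither gene's groups overlapped. Per kilobase, CDT1 RNA exceeded GMNN RNA 1.46, 2.17 and 1.19 times in the indomethacin libraries, and was 0.391, 0.699 and 0.744 times as abundant in the control libraries, a log2 difference in the ratio of 1.40 (two-sided exact permutation test, p = 0.1, the smallest possible).

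**Figure D3:**
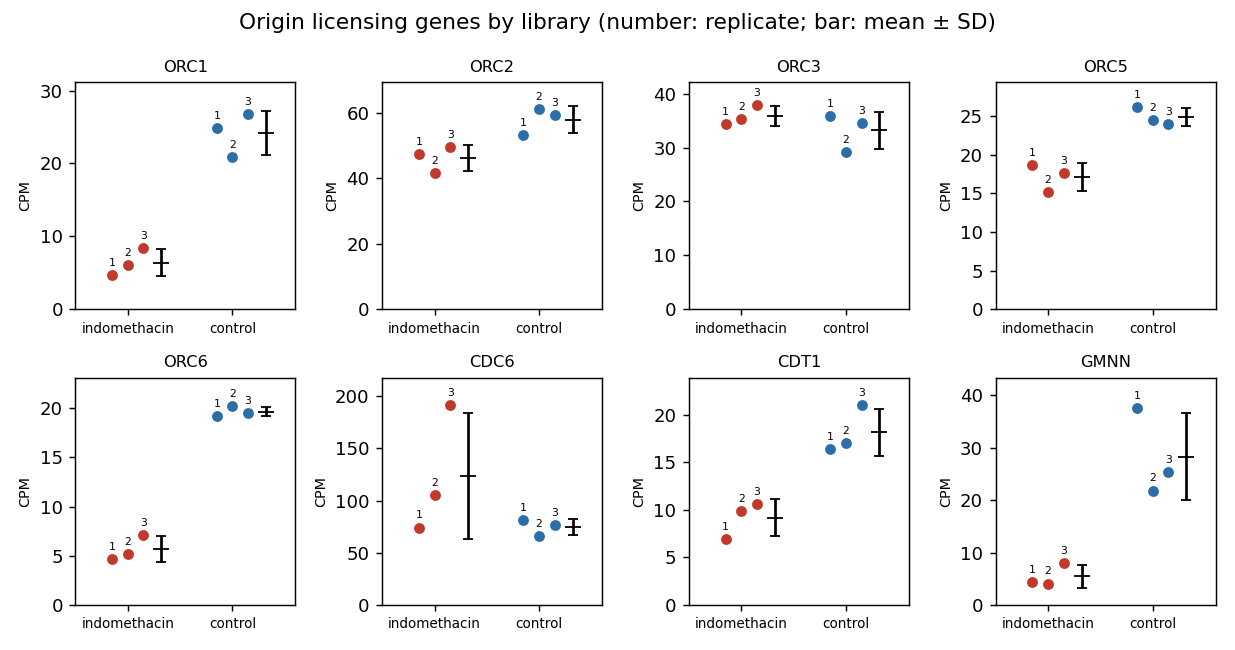
CPM (y axis, from 0) of the 8 licensing genes in each indomethacin library (left) and control library (right), with replicate numbers and mean ± SD. ORC1, ORC6 and GMNN are separated widely, ORC2 and ORC5 narrowly, ORC3 and CDC6 overlap, and CDC6 ranges from 74.2 to 191 CPM among indomethacin libraries.

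All 6 subunits of the MCM ring fell, as did MCM8 and MCM10, with a median log2 fold change of -2.83 over the 8 genes. MCM3 was at 22.3, 24.1 and 23.3 CPM in the indomethacin libraries and 173, 146 and 165 CPM in the control libraries (log2 fold change -2.79, SE 0.11, edgeR adjusted p = 3.1e-10). MCM4 was at 16.5, 15.8 and 21.2 CPM in the indomethacin libraries and 184, 136 and 176 CPM in the control libraries (log2 fold change -3.22). MCM6 was at 13.4, 10.4 and 15.9 CPM in the indomethacin libraries and 115, 93.2 and 118 CPM in the control libraries (log2 fold change -3.04). For each of the 6 ring subunits all indomethacin libraries lay below all control libraries. MCM2 was at 8.84, 10.04 and 12.6 CPM in the indomethacin libraries and 80.1, 69.4 and 80.1 CPM in the control libraries (log2 fold change -2.87). MCM5 was at 14.5, 18.4 and 28.4 CPM in the indomethacin libraries and 101, 77.3 and 93.03 CPM in the control libraries (log2 fold change -2.16). Indomethacin replicate 3 was the highest of its group for both, and for MCM5 it stood well above the other two. MCM2 shares 1113 of 4715 exonic bases with a gene on the other strand that had 14 counts. MCM7 fell least of the 6, to 54.4 ± 8.77 CPM in indomethacin-treated cells, against 185 ± 22.9 CPM in controls (log2 fold change -1.76, SE 0.14). In the intact ring the 6 subunits are present once each, but their RNA per kilobase spanned 12.5 (MCM5) to 44.2 (MCM3) CPM per kb in control cells. In indomethacin-treated cells it spanned 2.22 (MCM2) to 12.4 (MCM7) CPM per kb. These spans depend on the length of all annotated exons, 7268 bases for MCM5 and 3645 for MCM3, which may exceed the transcripts present. Before this scaling MCM5 and MCM3 averaged 90.5 and 161 CPM in control cells. MCM7 hosts a microRNA cluster in an intron and overlaps an exon of AP4M1 on the other strand.

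MCM10, which helps activate the loaded helicase, fell more than any ring subunit, with 2.95, 3.53 and 4.93 CPM in the indomethacin libraries and 47.2, 41.2 and 48.7 CPM in the control libraries (log2 fold change -3.60, SE 0.17, edgeR adjusted p = 1.2e-09). MCM8, which acts in recombination with MCM9, had a log2 fold change of -1.81. CDC45 was at 2.28, 1.99 and 4.21 CPM in the indomethacin libraries and 32.4, 28.7 and 27.8 CPM in the control libraries (log2 fold change -3.41). Among the 4 GINS genes, GINS2 was at 1.57, 1.89 and 2.52 CPM in the indomethacin libraries and 24.6, 20.1 and 24.02 CPM in the control libraries (log2 fold change -3.53), and GINS1 was at 7.27, 5.17 and 6.67 CPM in the indomethacin libraries and 61.6, 54.9 and 68.6 CPM in the control libraries (log2 fold change -3.27). All members of the GINS complex fell, but by different amounts. GINS4 had a log2 fold change of -2.12 (SE 0.20), and GINS3, at 5.51, 5.32 and 6.91 CPM in the indomethacin libraries and 15.2, 13.01 and 13.8 CPM in the control libraries, had -1.25 (SE 0.16). GINS1 stood highest of the 4 per kilobase in both groups, at 1.54 ± 0.262 CPM per kb in indomethacin-treated cells and 14.9 ± 1.66 CPM per kb in controls (mean ± SD, n = 3). GINS4 shares 1145 of 5447 exonic bases with a gene on the other strand that had 8 counts in all libraries, and GINS3 shares 558 of 5108 with one that had 3.

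**Figure D4:**
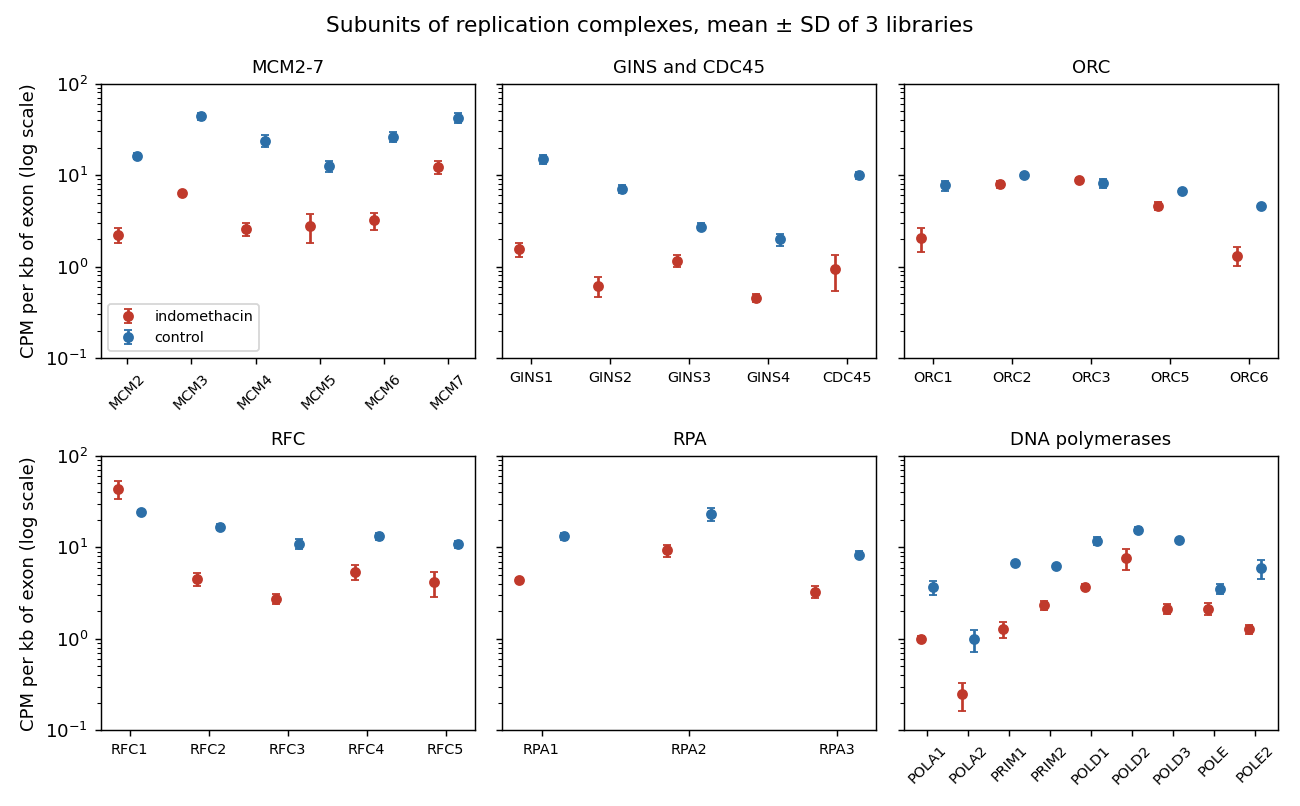
CPM per kilobase of exon (y axis, log scale), mean ± SD of 3 libraries, for subunits of 6 replication complexes, indomethacin left of control. Every MCM, GINS, RPA and polymerase subunit is lower with indomethacin, the groups lie close for ORC2, ORC3 and ORC5, and RFC1 is higher while RFC2 to RFC5 are lower.

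All 9 polymerase and primase genes fell, with a median log2 fold change of -1.87. POLD3, an accessory subunit of polymerase delta, was at 13.2, 11.4 and 10.4 CPM in the indomethacin libraries and 65.9, 63.1 and 67.6 CPM in the control libraries (log2 fold change -2.49, SE 0.12, edgeR adjusted p = 1.4e-09). The catalytic subunit POLD1 was at 17.2, 18.5 and 19.5 CPM in the indomethacin libraries and 60.6, 51.9 and 62.4 CPM in the control libraries (log2 fold change -1.67). The accessory subunit POLD2 was at 21.6, 26.6 and 35.9 CPM in the indomethacin libraries and 62.1, 53.4 and 57.7 CPM in the control libraries (log2 fold change -1.04). In polymerase epsilon, POLE2 had a larger fold change than the catalytic subunit POLE. POLE was at 34.8, 41.7 and 31.1 CPM in the indomethacin libraries and 68.2, 53.7 and 57.1 CPM in the control libraries (log2 fold change -0.73, SE 0.13, edgeR adjusted p = 2.5e-04), and POLE2 was at 4.28, 3.68 and 3.42 CPM in the indomethacin libraries and 22.3, 14.5 and 16.04 CPM in the control libraries (log2 fold change -2.21, SE 0.19). The small subunits POLE3 and POLE4, outside the 55 and named after their values were seen, had log2 fold changes of -0.89 (SE 0.12) and -0.64 (SE 0.23), near that of POLE. The groups overlapped for POLE4 (edgeR adjusted p = 0.028) but not for POLE3. Of the primase subunits, the catalytic PRIM1 was at 2.99, 3.58 and 4.45 CPM in the indomethacin libraries and 19.8, 18.98 and 18.9 CPM in the control libraries (log2 fold change -2.39), and PRIM2 had a log2 fold change of -1.42. POLA1, the catalytic subunit of polymerase alpha, was at 14.4, 16.3 and 16.1 CPM in the indomethacin libraries and 67.8, 51.4 and 51.5 CPM in the control libraries (log2 fold change -1.87), and its partner POLA2 had a log2 fold change of -1.97. The groups overlapped for none of these 9 genes. POLA2 had the fewest counts of any member, 437 over all libraries, and shares 2012 of 5568 exonic bases with another gene on the same strand, so its value is uncertain. PRIM1, with 1459 counts, shares 139 of 2855 exonic bases with NACA on the same strand. NACA had 30079 counts, so the value of PRIM1 is uncertain too.

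The sliding clamp PCNA, the ring that tethers polymerases to DNA, was at 56.8, 49.4 and 60.1 CPM in the indomethacin libraries and 318, 254 and 291 CPM in the control libraries (log2 fold change -2.38, SE 0.12, edgeR adjusted p = 2.2e-09). Replication factor C opens this ring and places it on DNA, and its subunits went in opposite directions. RFC1, the large subunit specific to this loader (ENSG00000035928, chromosome 4, 39287456 to 39366375, minus strand), was at 234, 285 and 357 CPM in the indomethacin libraries and 174, 164 and 160.4 CPM in the control libraries (log2 fold change 0.81, SE 0.14, edgeR adjusted p = 1.5e-04). Every indomethacin library was above every control, and RFC1 stayed past the threshold under all 16 alternatives, with log2 fold changes of 0.64 to 0.93. The small subunits RFC2 to RFC5, which also serve in other clamp loaders, all fell. RFC3 was at 6.80, 7.86 and 8.77 CPM in the indomethacin libraries and 36.3, 28.8 and 29.5 CPM in the control libraries (log2 fold change -2.02), and RFC2, RFC5 and RFC4 had log2 fold changes of -1.90, -1.40 and -1.30. Per kilobase, RFC1 averaged 43.4 ± 9.21 CPM per kb and RFC4, the highest of the small subunits in indomethacin-treated cells, 5.37 ± 0.999 CPM per kb. In controls RFC1 averaged 24.7 ± 1.01 CPM per kb and RFC2, the highest of the small subunits there, 16.7 ± 1.17 CPM per kb (mean ± SD, n = 3).

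The enzymes that finish the lagging strand and the single-strand binding protein fell, 5 of 5 genes, with a median of -1.57. The flap endonuclease FEN1 was at 11.7, 13.3 and 16.8 CPM in the indomethacin libraries and 75.2, 56.01 and 80.04 CPM in the control libraries (log2 fold change -2.34), and the ligase LIG1 was at 17.8, 17.3 and 23.4 CPM in the indomethacin libraries and 86.95, 82.8 and 91.7 CPM in the control libraries (log2 fold change -2.16). Both sets of libraries were clear of each other. The 3 subunits of RPA, which coats unwound DNA, all fell, with log2 fold changes of -1.57 for RPA1, -1.32 for RPA2 and -1.34 for RPA3 (SE 0.11, 0.14 and 0.14). No indomethacin library reached the level of a control library for any of the 3.

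Genes of nucleotide supply fell, 4 of 4, with a median of -2.95. RRM2, the small subunit of ribonucleotide reductase that is made in S phase, was at 5.13, 5.37 and 10.3 CPM in the indomethacin libraries and 104, 84.2 and 90.8 CPM in the control libraries (log2 fold change -3.76, SE 0.21, edgeR adjusted p = 5.1e-09). Its partner RRM1, the large subunit, was at 32.6, 36.99 and 48.8 CPM in the indomethacin libraries and 214, 166 and 185 CPM in the control libraries (log2 fold change -2.26). The ratio of RRM1 to RRM2 per kilobase was 13.7, 14.9 and 10.2 in the indomethacin libraries and 4.45, 4.27 and 4.40 in the control libraries (two-sided exact permutation test, p = 0.1, the smallest possible). RRM2B, a p53-responsive small subunit outside the 55 and named after its values were seen, had a log2 fold change of 0.12 (SE 0.11, edgeR adjusted p = 0.33) and did not pass. Thymidine kinase TK1 was at 4.51, 7.46 and 8.59 CPM in the indomethacin libraries and 91.1, 72.6 and 91.5 CPM in the control libraries (log2 fold change -3.64). For RRM1, RRM2 and TK1 indomethacin replicate 3 was the highest of its group and still below every control. Thymidylate synthase TYMS was at 5.09, 4.18 and 5.59 CPM in the indomethacin libraries and 17.8, 14.2 and 16.04 CPM in the control libraries (log2 fold change -1.69), and 967 of its 2421 exonic bases overlap ENOSF1 on the other strand, which leaves it uncertain.

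Among regulators of S phase, FAM111B (ENSG00000189057, chromosome 11, 59107185 to 59127412, plus strand), which encodes a protein with a trypsin-like protease domain, fell more than any other member, with 1.52, 0.845 and 1.74 CPM in the indomethacin libraries and 63.1, 47.1 and 60.5 CPM in the control libraries (log2 fold change -5.39, SE 0.21, edgeR adjusted p = 2.4e-10). Of all genes tested, 0.174% had a lower log2 fold change. The E-type cyclins, which activate CDK2 at the start of S phase, both fell. CCNE1 was at 15.2, 18.8 and 18.99 CPM in the indomethacin libraries and 42.9, 35.7 and 38.1 CPM in the control libraries (log2 fold change -1.14), and CCNE2 was at 4.33, 6.26 and 5.29 CPM in the indomethacin libraries and 26.3, 16.7 and 17.6 CPM in the control libraries (log2 fold change -1.93). The ratio of CCNE2 to CCNE1 per kilobase was 0.159, 0.187 and 0.156 in the indomethacin libraries and 0.343, 0.262 and 0.257 in the control libraries (two-sided exact permutation test, p = 0.1, the smallest possible). CCNE2 shares 1629 of 4397 exonic bases with INTS8 on the other strand and is uncertain for that reason. SLBP, which binds the stem-loop of histone mRNAs, fell less, with 36.4, 40.5 and 52.8 CPM in the indomethacin libraries and 71.95, 58.2 and 69.4 CPM in the control libraries (log2 fold change -0.62, SE 0.14).

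UHRF1, which recruits the maintenance DNA methyltransferase to newly copied DNA, was at 1.47, 2.09 and 2.70 CPM in the indomethacin libraries and 54.2, 45.6 and 49.5 CPM in the control libraries (log2 fold change -4.59, SE 0.18, edgeR adjusted p = 2.8e-10). CHAF1A and CHAF1B, subunits of the chaperone CAF-1 that deposits histones behind the fork, were at 9.11 ± 2.32 and 5.93 ± 1.88 CPM in indomethacin-treated cells, against 32.5 ± 3.35 and 27.7 ± 0.559 CPM in controls (mean ± SD, n = 3), with log2 fold changes of -1.84 and -2.23. Both lay below every control in all 3 indomethacin libraries. Claspin (CLSPN), which passes the signal from a stalled fork to CHEK1, was at 3.09, 3.43 and 3.97 CPM in the indomethacin libraries and 47.5, 40.99 and 48.2 CPM in the control libraries (log2 fold change -3.71, SE 0.15). Its neighbours in the fork protection complex fell less. TIPIN was at 1.81, 1.84 and 1.98 CPM in the indomethacin libraries and 13.4, 9.34 and 8.21 CPM in the control libraries (log2 fold change -2.46), and its partner TIMELESS was at 16.3, 19.3 and 29.7 CPM in the indomethacin libraries and 60.96, 59.1 and 63.05 CPM in the control libraries (log2 fold change -1.49).

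Levels of the members varied together within a group. Indomethacin replicate 3 was the highest of the 3 indomethacin libraries in 44 of 55 members, and control replicate 2 was the lowest of the 3 controls in 45. These counts were not made over all genes tested, so the order may not be particular to the members. Indomethacin replicate 3 also had the fewest total counts, 17535435, and the largest share of small structured nuclear RNAs, 16.3%. The part of these in the order was not tested. Summed over the members, levels were 1019, 1135 and 1448 CPM in indomethacin replicates 1, 2 and 3, against 3594, 2999.5 and 3422 CPM in control replicates 1, 2 and 3. The median log2 difference of the members from their control mean was -2.18, -1.96 and -1.79 in indomethacin replicates 1, 2 and 3, and 0.10, -0.15 and 0.04 in control replicates 1, 2 and 3. Without indomethacin replicate 3 the count of members that fell was again 52 and their median was -2.07, and without control replicate 2 these values were 52 and -2.09.

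Other genes of replication, from lists of related factors, were mostly lower as well. The counts in each list are to be read against the 31.0% of all genes tested that fell and the 30.6% that rose. Of 29 tested origin and fork factors outside the 55, 23 fell and 2 rose (median -0.99). The kinase CDC7, which fires licensed origins, was at 3.61, 4.28 and 4.75 CPM in the indomethacin libraries and 36.2, 30.2 and 30.96 CPM in the control libraries (log2 fold change -2.95). Topoisomerase TOP2A, the nuclease DNA2 and the fork scaffold WDHD1 had log2 fold changes of -3.05, -2.15 and -2.39. Against the list, the small polymerase delta subunit POLD4 was at 11.2, 14.9 and 13.2 CPM in the indomethacin libraries and 3.92, 5.25 and 4.41 CPM in the control libraries (log2 fold change 1.53, SE 0.18), opposite in direction to POLD1, POLD2 and POLD3. Topoisomerase TOP1 had a log2 fold change of 0.68. RNASEH2A was not tested for lack of counts. Of 13 further genes of nucleotide supply 10 fell and 3 did not pass (median -1.83). Among those that fell were the folate enzyme SHMT1 (-2.58), the dNTP hydrolase SAMHD1 (-2.63) and the nucleoside diphosphate kinase NME1 (-2.56). Of 12 replication-coupled chromatin factors 11 fell (median -1.50), with log2 fold changes of -3.82 for the histone chaperone ASF1B, -3.11 for the remodeller HELLS, -1.90 for the maintenance methyltransferase DNMT1 and -1.85 for the histone-binding RBBP7.

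Upstream regulators were divided. Of 18 E2F, RB and DREAM factors 10 fell, 3 rose and 5 did not pass (median -0.38), so 55.6% fell, against 31.0% of all genes tested. The activator E2F2 was at 0.618, 0.448 and 0.961 CPM in the indomethacin libraries and 12.1, 9.68 and 9.99 CPM in the control libraries (log2 fold change -3.99), and the dimerisation partner TFDP1 had a log2 fold change of -1.65. The atypical repressors E2F7 and E2F8 went in opposite directions. E2F7, a known p53 target, was at 41.8, 45.7 and 42.7 CPM in the indomethacin libraries and 13.8, 11.2 and 13.7 CPM in the control libraries (log2 fold change 1.75, SE 0.12), and E2F8 was at 2.47, 1.04 and 2.64 CPM in the indomethacin libraries and 37.9, 37.9 and 39.7 CPM in the control libraries (log2 fold change -4.24, SE 0.22). LIN37 (1.22) and LIN54 (0.40), subunits of the DREAM complex that represses cell cycle genes, also rose. Other subunits of that complex in the list, named after their values were seen, did not rise. LIN9 (-1.18), RBL1 (-1.48), RBL2 (-0.35) and E2F5 (-0.43) fell, and LIN52 (-0.21) and E2F4 (-0.16) did not pass. The call for LIN54 was lost without indomethacin replicate 3 (log2 fold change 0.26, adjusted p = 0.053), without control replicate 1 (0.32, adjusted p = 0.067) and with no filter (0.30, adjusted p = 0.063). LIN37 shares 1180 of 2820 exonic bases with a gene on the other strand that had 14 counts.

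Of 7 S phase kinases and inhibitors 3 fell, 1 rose and 3 did not pass. The share that fell, 42.9%, was near the 31.0% of all genes tested. Cyclin A2 (CCNA2, -3.00), the phosphatase CDC25A (-2.09) and the kinase CDK2 (-1.40) had negative log2 fold changes. The CDK inhibitor p21, CDKN1A, was at 441, 512 and 518 CPM in the indomethacin libraries and 182, 165 and 178 CPM in the control libraries (log2 fold change 1.49, SE 0.11, edgeR adjusted p = 6.7e-08). Of 8 fork checkpoint genes 5 fell, against 31.0% of all genes tested, and 1 rose. The fall was at least 2-fold in 2 of the 8, or 25%, against 15.6% of all genes tested. The checkpoint kinase CHEK1 had a log2 fold change of -1.71, and ETAA1, an activator of ATR, of -1.17. In the checkpoint clamp, RAD1 fell (-0.98) while its partner HUS1, at 19.3, 24.3 and 26.7 CPM in the indomethacin libraries and 11.8, 10.96 and 11.4 CPM in the control libraries, rose (1.04, SE 0.14). The remaining clamp subunit RAD9A, named after its values were seen, had a log2 fold change of 0.58 (SE 0.25, edgeR adjusted p = 0.062). RAD9A did not pass, and its groups overlapped.

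**Figure D5:**
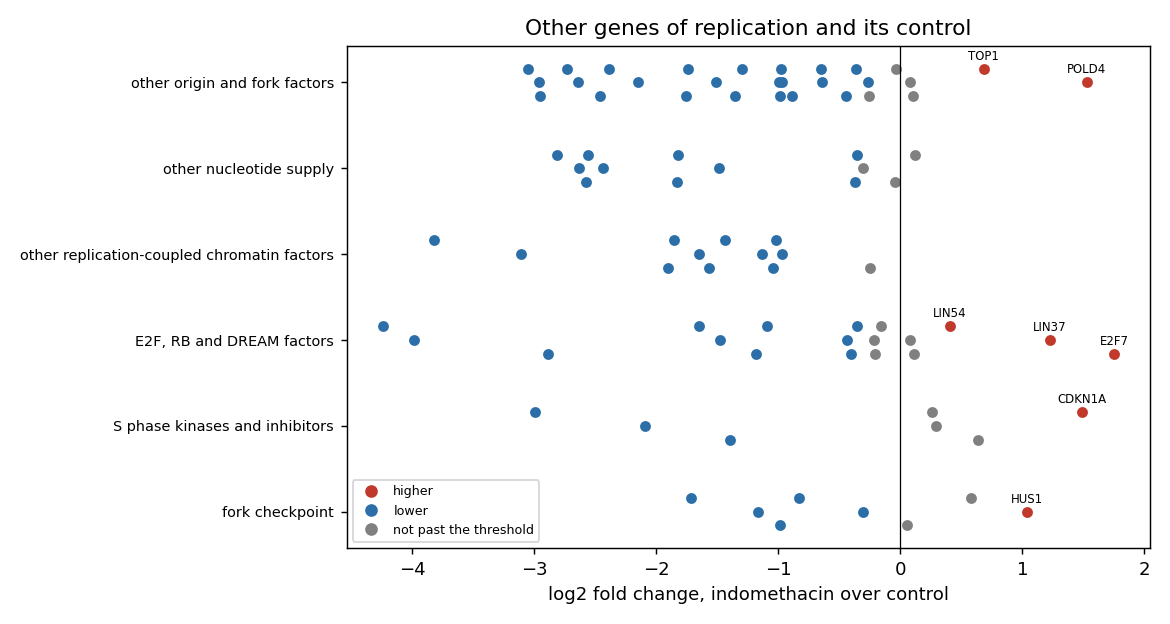
Log2 fold change of indomethacin over control (x axis) for tested genes of 6 related lists (rows, jittered vertically), coloured by call. Named points are the genes called higher: POLD4, TOP1, E2F7, LIN37, LIN54, CDKN1A and HUS1.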

How the data were processed

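The authors deposited 1 table of raw read counts per gene and library, with each gene's position, strand and exon length. Per the labels' protocols, libraries were prepared with a stranded total RNA kit with ribosomal RNA depletion and sequenced as paired reads. Per the submitters' processing notes, the tools included bcl2fastq, FastQC 0.11.7, cutadapt 1.16, HISAT2 2.1.0, SAMtools, featureCounts and DESeq2, on build hg38. The strand setting, the handling of reads with several matches and the annotation release are not given in the sources used here, so values of genes that overlap another gene are uncertain: 22 of the 55 members share exonic bases with another counted gene, 6 of them over 10% of their bases.

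Of 60607 lines per table, 3 belonging to 1 broken entry were left out. The deposited counts of all 6 libraries were fitted with edgeR 4.0.16 in R 4.3.3 (default expression filter, TMM factors, quasi-likelihood test, group as the only term, Benjamini-Hochberg adjustment over 17200 genes, threshold 0.05), and the procedure was tested on simulated data. CPM are counts scaled by TMM factors to a common library size, and CPM per kb divide these by the length of all annotated exons of the gene. Levels and ratios compared between genes depend on that length, while the difference of a ratio between the groups does not. The alternatives used limma 3.58.1, DESeq2 1.42.0, other scalings and filters, a length offset, a replicate block, a stricter threshold and each library left out. A zero count in a library allows up to 0.180 CPM (3 counts, counting error only), and every member had at least 14 counts in each library. The members and the related gene lists were chosen with earlier results of these data known. Every member is accounted for; of each related list, the text names the 4 tested genes with the smallest adjusted p and every gene called against the direction of most of its list, except 1 gene that is not reported here.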

Additional observations from a re-analysis of the deposited data

How the results depend on the processing

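Of the 55 members, 51 or 52 fell under all 16 alternatives: 51 with upper-quartile factors, without indomethacin replicate 2 and at an adjusted p under 0.01, where ORC2 lost its call, and 52 in the rest. The number of members that rose was 1 with DESeq2 and at an adjusted p under 0.01, and 1 to 2 when a library was left out; CDC6 was the member that lost its call, and the cause was not tested. ORC3, which had no call, had log2 fold changes of -0.014 to 0.12 with a library left out, the negative one without control replicate 2. LIN54, with an adjusted p of 0.01, also lost its call at that stricter threshold. The median log2 fold change of the members lay between -2.09 and -1.82, and the number of genes called over all genes stayed within 1.5 times the main count. Upper-quartile factors moved the median of all genes by 0.12 and made 56.7% of called genes higher, against 49.7% with TMM; without a filter the median of all genes moved by 0.15. The difference in the members' share of counts was -1.55 to -1.36 on the log2 scale with a library left out. The 4 ratios of partner genes kept their sign with each library left out, an alternative chosen after seeing the data.

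With replicate number as a block, 52 members fell, 2 rose and their median was -1.94. Deviations of same-numbered libraries from their group means correlated at 0.02, 0.01 and 0.13, not over 0.1 in every pair, and the labels name nothing that same-numbered libraries share, so the number was not taken to pair them; whether they shared a culture day or batch is not known. Indomethacin replicate 1 correlated best with control replicate 2 (0.13).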
